A study of Mus musculus with 24 samples.

Results

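The middle of the intestine of Amacr-/- mice, segments 2 and 3 of 4 equal segments, was compared with both of its ends, segments 1 and 4. The comparison used 12 of the 24 arrays of the series, 6 of the middle and 6 of the ends, with 3 biological replicates per segment. For each replicate number, the mean of segments 2 and 3 minus the mean of segments 1 and 4 gave 1 difference, so that each gene had 3 differences. The groups were Amacr-/- segments 2 and 3, Amacr-/- segments 1 and 4, and the same segments of wild-type mice, which were set beside them. All animals were male C57BL/6 mice aged 3 to 3.5 months, and no treatment beyond a saline rinse of the gut was recorded. The layer scraped from the opened segments gave total RNA, which was measured on 1-colour arrays as log2 expression values. The labels number the segments without saying which end is segment 1, and number the replicates without saying that a number marks 1 mouse. They also do not say how the Amacr allele was made.

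Amacr encodes alpha-methylacyl-CoA racemase, a peroxisomal and mitochondrial enzyme that turns branched-chain fatty acids and bile acid precursors into the isomer that peroxisomal oxidation accepts. Along the small intestine, enterocytes differ by position: iron is taken up mostly near the stomach, fat and cholesterol mainly in the jejunum, and bile acids in the ileum. The design text gives the jejunum as the site of cholesterol absorption.

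Amacr itself read 5.6, 4.81 and 5.26 in Amacr-/- segment 2 and 5.51, 5.26 and 5.16 in segment 3 (log2 expression, replicates 1 to 3). In Amacr-/- segments 1 and 4 it read 5.32, 5.56 and 5.13, and 5.13, 4.84 and 4.9. In wild-type mice it averaged 8.42 ± 0.34, 8.07 ± 0.08, 7.26 ± 0.31 and 7.03 ± 0.08 in segments 1 to 4 (SD, n = 3 each). Every Amacr-/- array lay below every wild-type array, as the genotype labels say; the sources used here do not place the probe set relative to the deleted part of the gene.

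The labels name the cell type endothelial. The epithelial markers Epcam and Vil1, an adhesion protein and a microvillus protein, averaged 13.82 and 13.50 in the Amacr-/- middle and 13.66 and 13.46 at the ends. The mean of 10 epithelium markers was 12.29 to 12.77 in middle arrays and 12.21 to 12.93 in end arrays. The mean of 11 markers of blood vessel endothelium was 4.98 to 5.73 in the middle and 5.08 to 5.31 at the ends, while array medians were 6.06 to 6.16. Fat cell markers were uneven between arrays: the mean of 7 of them was 5.61 to 10.25 in the middle and 5.68 to 6.73 at the ends. The highest array was Amacr-/- segment 3 replicate 3, where Adipoq, a fat cell hormone, read 12.11 against 4.05 and 5.53 in the other replicates. The mean of 11 smooth muscle markers was 5.66 to 8.04 in the middle and 5.6 to 6.25 at the ends, with segment 2 replicate 1 the highest. The mean of 10 fibroblast markers was 5.89 to 7.66 in the middle and 6.01 to 6.31 at the ends. The mean of 11 exocrine pancreas markers was 5.6 to 5.91 in the middle and 5.74 to 7.33 at the ends, with segment 1 replicate 3 the highest. In 4 Amacr-/- and 2 wild-type arrays the fat, smooth muscle or pancreas mean lay more than 1 log2 unit above its mean over all arrays. By the same measure the stomach markers of Amacr-/- segment 1 replicate 2 lay 1.02 and the colon markers of Amacr-/- segment 4 replicate 3 lay 1.23 above the mean; these 2 end arrays were left out only with their whole replicates. All 7 fat cell, 11 smooth muscle and 10 fibroblast markers had positive middle-minus-end differences, and all 11 pancreas and 13 T cell markers had negative ones, but 0 of them passed the test below. In such scrapings, fewer cells of a type and less RNA per cell cannot be told apart. Results are therefore given with all arrays and, where it changes a call, without those 6 arrays; beyond these values the part of such tissue in the results was not tested.

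**Figure D1:**
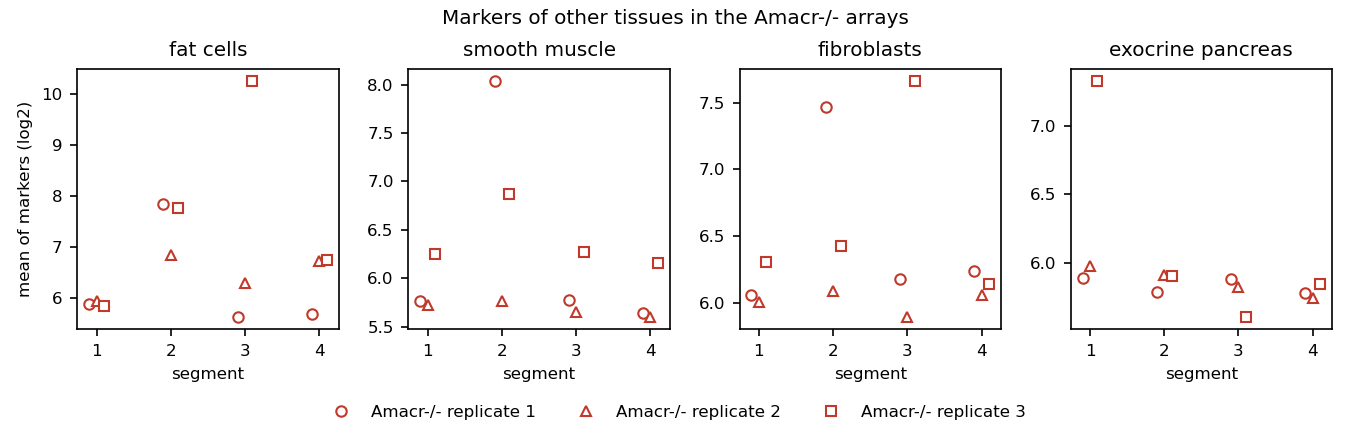
Mean log2 expression of markers of 4 other tissues (vertical axes) in the 12 Amacr-/- arrays by segment (horizontal axes), with 1 symbol per replicate. Fat cell markers reached 10.25 in segment 3 replicate 3, and smooth muscle markers 8.04 in segment 2 replicate 1.

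Genes were tested with limma on the 3 Amacr-/- differences, with the 3 wild-type differences sharing the estimate of the spread, and a gene was called at a Benjamini-Hochberg adjusted p under 0.05 over 15267 genes. A log2 difference of 1 is a doubling. Of these genes, 152 were called (0.996%), 86 higher in the middle (0.563%) and 66 lower (0.432%). A call on the mean of both ends can come from 1 end alone, so a gene was described further only where both middle segment means lay on the same side of both end means. This left 34 genes higher in the middle (0.223% of all genes) and 27 lower (0.177%). The same test on the middle minus segment 1 alone called 1203 genes (7.88%), and on the middle minus segment 4 alone 2030 (13.3%). Without any test, 11.3% of all genes had both middle means above both end means and 10.1% had both below. The differences of the 34 ranged between 0.34 and 3.07, with a median of 0.58, and those of the 27 between -0.44 and -2.79, with a median of -0.74. The median over all genes was -0.0017.

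The number of calls rested on few arrays. Without Amacr-/- replicate 1, 2 or 3 the same-side calls came to 3, 2 and 10 genes, and without wild-type replicate 1, 2 or 3 to 22, 40 and 111. Of the 43 called genes named here, 2, 2 and 7 stayed called without Amacr-/- replicate 1, 2 and 3. The counts were 16, 27 and 43 without wild-type replicate 1, 2 and 3. The direction of the 43 could not change in these fits. The 3 Amacr-/- differences of each gene shared a sign, and leaving out a wild-type replicate does not alter the Amacr-/- mean. Without the 6 arrays rich in markers of other tissues, in a fit of group means, 41 genes were called higher and 30 lower on the same side, and 29 of these 71 were among the 61; all 43 named genes kept their direction and 16 stayed called. The 16 were Npl, Clca3a1, Asah2, Sgpl1, Tmem86a, Anxa4, Pdp2, Lap3, Galnt2, Pla2g12b, Slc13a1, Ugt2b5, Tmem65, Spag5, Gcnt2 and Msmo1. In the other 27 named genes the adjusted p then lay between 0.0502 and 0.415; this fit left 1 array in Amacr-/- segment 2, which is assumed to vary like the other groups.

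Npl stood furthest above both ends. It encodes N-acetylneuraminate pyruvate lyase, which splits the sialic acid of mucins and other glycoproteins so that its sugar can be reused. Npl read 9.80, 9.92 and 9.25 in segment 2 and 9.86, 10.01 and 9.69 in segment 3, against 6.11, 5.75 and 6.08 in segment 1 and 7.73, 7.21 and 7.26 in segment 4. All 6 middle arrays lay above all 6 end arrays, and segment 4 lay above segment 1 in each replicate. The difference was 3.07 ± 0.20 (SE; limma adjusted p = 0.00367), an 8.37-fold higher level in the middle than at the ends. Against segment 1 alone it was 3.78 (adjusted p = 0.000154) and against segment 4 alone 2.36 (adjusted p = 0.0085). Npl was called in all 19 alternative fits, with adjusted p up to 0.0337.

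Clca3a1, a member of the calcium-activated chloride channel regulator family, had the second largest difference of the 34 genes called higher. It read 8.02, 8.39 and 7.93 in segment 2 and 7.68, 8.01 and 7.54 in segment 3, against 5.72, 5.19 and 5.81 in segment 1 and 5.55, 6.34 and 5.55 in segment 4. The middle and end arrays did not overlap. The difference was 2.24 ± 0.21 (SE; adjusted p = 0.0116), or 4.71-fold. It passed against segment 1 (2.36, adjusted p = 0.00305) and against segment 4 (2.12, adjusted p = 0.00251). The Clca genes form a cluster of similar copies, so signal from a near-identical family member could enter this probe set.

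In each direction, the 2 genes with the largest differences that have exactly 1 window in the RefSeq table of promoters (GRCm38.p6) are shown, to set these genes' start sites beside their profiles; 49 of the 61 genes have at least 1. Each holds 250 bases before the start site and 50 after it, 5' to 3' on the gene's strand. Capitals mark matches, on either strand, to 4 sets of letters. The GATA core was searched as AGATAA and with a first letter of T as TGATAA. The CDX2 core was searched as CATAAA. The HNF4 sequence was searched in a pair of forms, the first of which was CAAAGTCCA and the other of which was CAAAGTTCA. The heat shock element core was searched as GAANNTTC, with N for any base. The windows lie at chr1:153549665-153549964 for Npl (minus strand), chr3:144760928-144761227 for Clca3a1 (minus), chr5:87140291-87140590 for Ugt2b5 (minus) and chr1:185454598-185454897 for Slc30a10 (plus).
Npl: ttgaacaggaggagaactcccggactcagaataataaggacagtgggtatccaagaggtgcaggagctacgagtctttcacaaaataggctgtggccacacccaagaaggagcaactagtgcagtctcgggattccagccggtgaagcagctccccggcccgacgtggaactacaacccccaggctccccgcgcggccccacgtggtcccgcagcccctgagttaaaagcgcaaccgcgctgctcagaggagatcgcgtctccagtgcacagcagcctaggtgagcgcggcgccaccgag
Clca3a1: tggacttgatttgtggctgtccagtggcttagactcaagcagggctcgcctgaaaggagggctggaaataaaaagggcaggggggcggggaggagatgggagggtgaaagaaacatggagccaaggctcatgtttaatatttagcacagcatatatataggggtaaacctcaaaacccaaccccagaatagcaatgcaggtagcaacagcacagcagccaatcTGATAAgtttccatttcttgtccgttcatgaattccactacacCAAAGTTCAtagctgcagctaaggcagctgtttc
Ugt2b5: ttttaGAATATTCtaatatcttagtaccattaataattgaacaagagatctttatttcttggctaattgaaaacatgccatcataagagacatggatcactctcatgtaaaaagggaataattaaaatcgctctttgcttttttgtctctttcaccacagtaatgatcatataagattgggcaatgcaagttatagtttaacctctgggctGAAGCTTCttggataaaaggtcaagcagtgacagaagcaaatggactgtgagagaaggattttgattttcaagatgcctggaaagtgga
Slc30a10: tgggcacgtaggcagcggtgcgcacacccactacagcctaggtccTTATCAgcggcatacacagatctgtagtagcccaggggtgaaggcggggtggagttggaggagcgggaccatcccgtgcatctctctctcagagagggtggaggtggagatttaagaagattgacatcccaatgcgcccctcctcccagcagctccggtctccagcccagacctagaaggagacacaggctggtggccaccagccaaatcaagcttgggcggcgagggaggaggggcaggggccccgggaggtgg
The Npl window held none of these letters. The Clca3a1 window held 1 GATA core at position -27 from the start site and 1 HNF4 match at position 16. The Ugt2b5 window held 2 heat shock element cores, and the Slc30a10 window held 1 GATA core. Over all 32851 windows of the table, 18.6% held a GATA core, 11.9% a CDX2 core, 0.861% an HNF4 match and 7.86% a heat shock element core. No match overlapped another in these windows, and a match describes letters only.

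**Figure D2:**
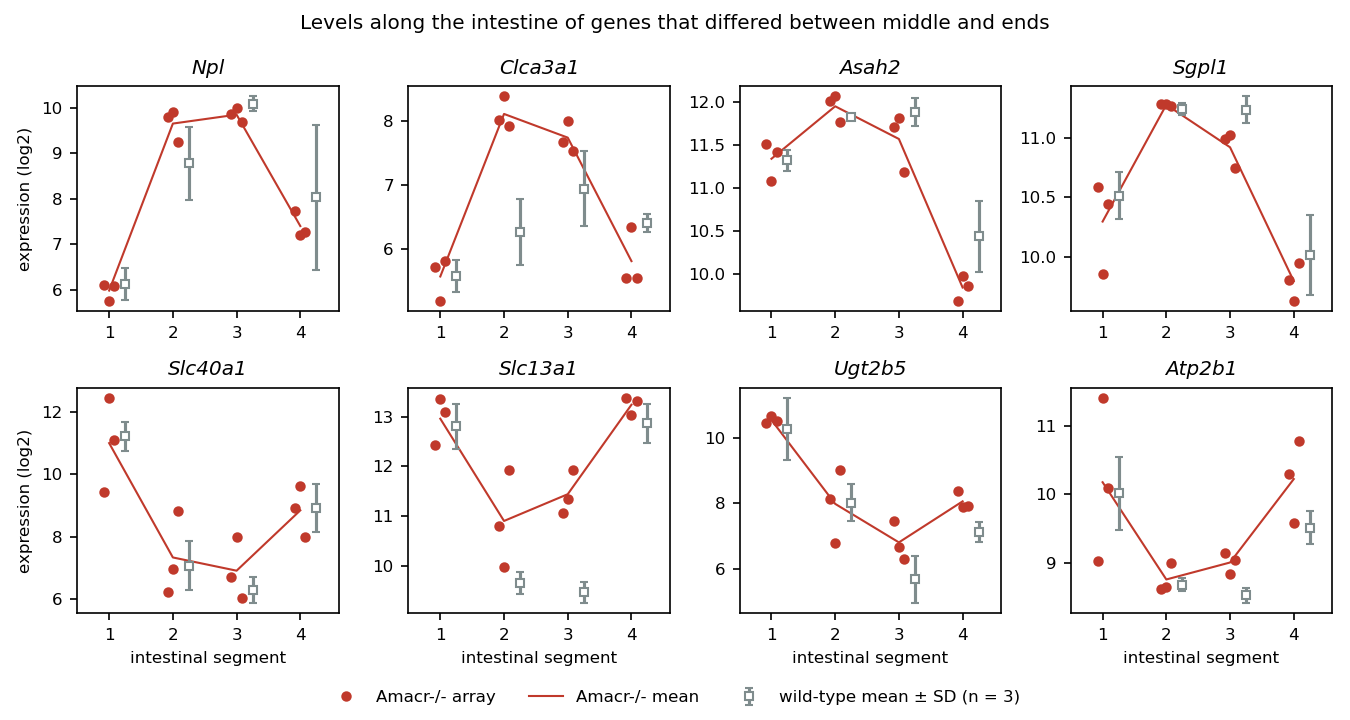
Log2 expression (vertical axes) by intestinal segment (horizontal axes) for 4 genes higher and 4 lower in the middle. Points are single Amacr-/- arrays, lines their means, and squares the wild-type mean ± SD (n = 3); Npl, Clca3a1 and Sgpl1 had no overlap between middle and end arrays, nor had Slc13a1 on the lower side.

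Of 4 called sphingolipid enzymes, Asah2, Sgpl1 and Cerk were higher in the middle and Sgpp1 was lower. Sphingolipids of food and shed cells are turned, in the gut lumen and the enterocyte, into ceramide, then sphingosine, then sphingosine-1-phosphate. These genes were grouped after their values were seen, with no list or test behind the group. Sphingolipid enzymes that were not called were not counted, so no share of them can be given. Over all genes, 0.996% were called. Asah2, the neutral ceramidase of the brush border, read 12.02, 12.07 and 11.77 in segment 2 and 11.71, 11.82 and 11.19 in segment 3, against 11.52, 11.09 and 11.42 in segment 1 and 9.69, 9.98 and 9.87 in segment 4. Segment 4 was low in all replicates, while segment 3 replicate 3 fell inside the range of segment 1. The difference was 1.17 ± 0.14 (SE; adjusted p = 0.0236); it passed against segment 4 (1.92, adjusted p = 0.00171) and not against segment 1 (0.42, adjusted p = 0.141).

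Sgpl1, the lyase that breaks sphingosine-1-phosphate down for good, read 11.28, 11.28 and 11.27 in segment 2 and 10.99, 11.02 and 10.75 in segment 3, against 10.59, 9.86 and 10.44 in segment 1 and 9.81, 9.63 and 9.95 in segment 4. No end array reached a middle array. Its difference was 1.05 ± 0.15 (SE; adjusted p = 0.0313), and it passed against segment 1 (0.80, adjusted p = 0.0261) and segment 4 (1.30, adjusted p = 0.0035). Cerk, the kinase that phosphorylates ceramide, had a difference of 0.56 ± 0.07 (adjusted p = 0.0259), and it passed against segment 4 alone.

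Sgpp1, the phosphatase that returns sphingosine-1-phosphate to sphingosine, went the other way. It read 6.29, 6.57 and 6.27 in segment 2 and 6.94, 7.66 and 6.52 in segment 3, against 7.27, 7.30 and 7.25 in segment 1 and 7.99, 8.69 and 7.62 in segment 4. Segment 3 replicate 2 lay among the end arrays, so the groups overlapped. The difference was -0.98 ± 0.10 (SE; adjusted p = 0.0116), and it passed against both segment 1 (-0.57, adjusted p = 0.0376) and segment 4 (-1.39, adjusted p = 0.00648). When the 6 marker-rich arrays were left out Asah2 (1.34, adjusted p = 0.000831) and Sgpl1 (1.13, adjusted p = 0.00351) stayed called, while Cerk (0.51, adjusted p = 0.0806) and Sgpp1 (-0.76, adjusted p = 0.245) did not.

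Genes of sterol transport, the subject of the study's design, had a median difference of 0.45 over 9 measured genes, against -0.0017 over all genes. Beside transporters, this list held other genes of sterol handling, such as Nr1h3 and Mylip. Of the 9, 1 was called higher and 6 had both middle means above both end means, against 0.563% and 11.3% of all genes. The difference was above 0 in 7 and below 0 in 2, and above 0 in 49.4% of all genes. The largest in size was negative, that of Scarb1 at -1.59 (adjusted p = 0.0559). Scarb1 averaged 9.24, 5.76, 4.81 and 4.51 in segments 1 to 4. The called gene was Abcg8, the partner of Abcg5 in the pump that returns sterols to the gut lumen. It read 10.26, 10.24 and 10.46 in segment 2 and 10.02, 9.91 and 10.25 in segment 3, against 9.99, 9.67 and 10.35 in segment 1 and 8.91, 8.69 and 9.16 in segment 4. Segment 1 overlapped with the middle and segment 4 did not. The difference was 0.73 ± 0.07 (SE; adjusted p = 0.0116); it passed against segment 4 (1.27, adjusted p = 0.000886) and not against segment 1 (0.19, adjusted p = 0.365). It was 0.73 with an adjusted p of 0.118 when the 6 marker-rich arrays were left out.

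Abcg5, Npc1l1 and Abca1, like Scarb1, were looked at after their values were seen. Abcg5 had a difference of 0.50 (adjusted p = 0.0706). Npc1l1, the carrier that takes cholesterol up from the lumen, averaged 12.80 and 13.19 in segments 2 and 3, against 12.46 and 12.64 in segments 1 and 4. Its difference was 0.45 ± 0.10 (SE), short of the threshold (adjusted p = 0.111); it passed against segment 4 (0.36, adjusted p = 0.0361) and not against segment 1 (0.54, adjusted p = 0.0647). Abca1, which loads cholesterol onto lipoproteins at the basal side, had a difference of 1.44 ± 0.36 (adjusted p = 0.142). It was 2.10 against segment 4 (adjusted p = 0.00358) and 0.78 against segment 1 (adjusted p = 0.385). Abca1 passed when the 6 marker-rich arrays were left out, at 1.66 (adjusted p = 0.0126).

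Of the other genes called higher in the middle, Tmem86a, which cleaves lysoplasmalogens, differed by 0.92 ± 0.10 (SE; adjusted p = 0.0131), and Tmem64 by 0.89 ± 0.08 (adjusted p = 0.0103). Anxa4, a calcium-dependent binder of membrane lipids, read 12.87 to 13.19 over the 6 middle arrays and 11.74 to 12.72 over the 6 end arrays, a difference of 0.82 ± 0.08 (adjusted p = 0.0116). Lap3, a leucine aminopeptidase of the cytosol, read 12.98 to 13.17 in the middle and 11.56 to 12.52 at the ends, a difference of 0.78 ± 0.09 (adjusted p = 0.0186). Pdp2, the phosphatase that switches pyruvate dehydrogenase on, differed by 0.79 ± 0.11 (adjusted p = 0.0313). All 5 had no overlap between middle and end arrays and passed against each end. Sgk3, a kinase of growth factor signalling, also passed against each end, with a difference of 0.66, although its arrays overlapped.

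The remaining genes among the 15 largest leaned on 1 end. Aqp1, a water channel, differed by 0.77 ± 0.13 (adjusted p = 0.0458) and passed against segment 1 alone, as did Lrp12, a receptor of the LDL receptor family, at 0.76. Cyp4v3, a hydroxylase of fatty acids, differed by 0.75 and passed against segment 4 alone, at 1.29 (adjusted p = 0.00209). Socs3, which dampens cytokine signalling, differed by 0.70 (adjusted p = 0.0326) and passed against segment 4 alone. Socs3 in segment 4 read 7.16, 8.93 and 7.58, so replicate 2 lay among the middle arrays. Socs3 stood at 0.83 with an adjusted p of 0.415, and Sgk3 at 0.58 with one of 0.408, when the marker-rich arrays were left out.

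Smaller same-side rises, named after their values were seen, included Pcyt1a, the rate-setting enzyme of phosphatidylcholine synthesis, at 0.58, and Naaa, an amidase of lipid amides, at 0.51. Man1a trims and Galnt2 starts sugar chains of glycoproteins, and both were higher in the middle, at 0.52 and 0.44. On the lower side stood Gcnt2, which branches sugar chains, at -0.44, and Piga, which begins the lipid anchor of surface proteins, at -0.57. Vps33b, part of a membrane sorting complex, was higher by 0.57. Of these 7 genes, Man1a, Vps33b and Gcnt2 passed against each end.

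**Figure D3:**
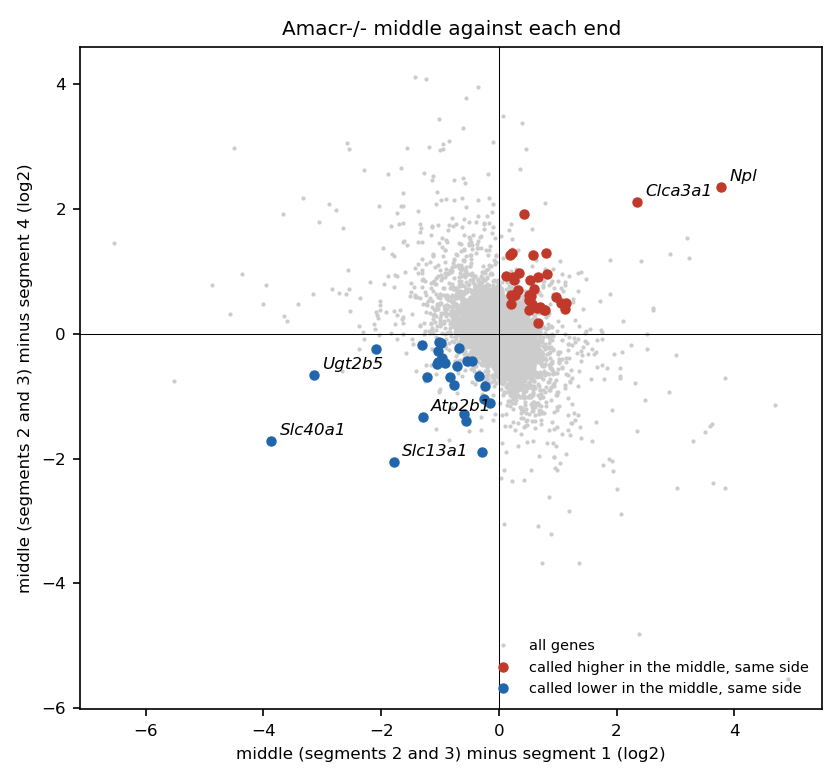
Difference of the Amacr-/- middle from segment 1 (horizontal axis) and from segment 4 (vertical axis), both log2, for 15267 genes. Red points are the 34 genes called higher in the middle with both middle means above both end means, blue points the 27 called lower; Npl is furthest out at 3.78 and 2.36.

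Slc40a1 had the most negative difference of the 27 genes lower in the middle. It encodes ferroportin, the iron exporter of the basal membrane, and read 6.24, 6.96 and 8.83 in segment 2 and 6.71, 7.99 and 6.06 in segment 3, against 9.45, 12.44 and 11.11 in segment 1 and 8.91, 9.64 and 8.0 in segment 4. Each replicate fell in the middle, by 2.71, 3.57 and 2.11, but the spread between replicates was wide and segment 2 replicate 3 lay above segment 4 replicate 3. The difference was -2.79 ± 0.38 (SE; adjusted p = 0.0303), or 6.93-fold lower. It passed against segment 1 (-3.87, adjusted p = 0.00132) and not against segment 4 (-1.72, adjusted p = 0.0685).

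Slc30a10, which exports manganese, read 7.32, 7.38 and 7.71 in segment 2 and 7.35, 7.48 and 7.73 in segment 3, against 8.75, 10.61 and 9.40 in segment 1 and 7.75, 7.64 and 7.83 in segment 4. Segment 1 was high and segment 4 lay next to the middle. The difference was -1.17 ± 0.17 (SE; adjusted p = 0.0313), with -2.09 against segment 1 (adjusted p = 0.00786) and -0.25 against segment 4 (adjusted p = 0.177). Its promoter window with 1 GATA core is printed above.

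Atp2b1, the plasma membrane calcium pump, read 8.62, 8.66 and 9.01 in segment 2 and 9.15, 8.84 and 9.04 in segment 3, against 9.03, 11.40 and 10.10 in segment 1 and 10.30, 9.59 and 10.78 in segment 4. Segment 1 replicate 1 was the single end array within the middle range. The difference was -1.31 ± 0.19 (SE; adjusted p = 0.0327), which passed against segment 4 (-1.34, adjusted p = 0.00423) and not against segment 1 (-1.29, adjusted p = 0.109). These 3 were the called members of a list of 14 iron, calcium and folate genes, whose median was -0.22 with 12 of the 14 below 0. Over all genes, 0.432% were called lower and 49.4% had a difference above 0. None of the 3 passed when the marker-rich arrays were left out: the differences were -2.74 for Slc40a1 (adjusted p = 0.0502), -1.31 for Slc30a10 (adjusted p = 0.0515) and -1.39 for Atp2b1 (adjusted p = 0.138).

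Slc13a1, the sodium-sulphate cotransporter of the brush border, was low in the middle and high at both ends. It read 10.81, 9.98 and 11.93 in segment 2 and 11.07, 11.34 and 11.92 in segment 3, against 12.42, 13.35 and 13.10 in segment 1 and 13.37, 13.03 and 13.31 in segment 4. All 6 middle arrays lay below all 6 end arrays. The difference was -1.92 ± 0.22 (SE; adjusted p = 0.0186), or 3.79-fold lower, with -1.78 against segment 1 (adjusted p = 0.00889) and -2.06 against segment 4 (adjusted p = 0.00217). Leaving out the marker-rich arrays gave -2.47 (adjusted p = 4.56e-05).

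A pair of sulphur-handling enzymes, named after their values were seen, shared that direction. Cth, which makes cysteine from cystathionine, differed by -0.49 ± 0.08 (adjusted p = 0.039) and passed against each end. Ethe1, which oxidises persulphides in mitochondria, differed by -0.54 ± 0.09 (adjusted p = 0.049) and passed against segment 4 alone. Mettl7b, a methyltransferase of small thiols, read 9.38 to 9.48 in the 6 middle arrays and 9.50 to 10.82 in the 6 end arrays, a difference of -0.77 ± 0.12 (adjusted p = 0.039). Mettl7b passed against segment 1 (-1.05, adjusted p = 0.00832) and not against segment 4 (-0.48, adjusted p = 0.129).

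Ugt2b5, a glucuronosyltransferase that conjugates steroids and drugs, was lower in the middle. It read 8.13, 6.79 and 9.02 in segment 2 and 7.46, 6.67 and 6.29 in segment 3, against 10.43, 10.67 and 10.50 in segment 1 and 8.36, 7.89 and 7.92 in segment 4. Segment 1 stood apart from all other arrays and segment 4 overlapped with segment 2. The difference was -1.90 ± 0.19 (SE; adjusted p = 0.0116), with -3.14 against segment 1 (adjusted p = 0.000687) and -0.66 against segment 4 (adjusted p = 0.135). Hsd3b2 and Hsd3b3, which are 3-beta-hydroxysteroid dehydrogenases, differed by -0.95 ± 0.15 (adjusted p = 0.0432) and -0.62 ± 0.09 (adjusted p = 0.0369). Hsd3b2 passed against segment 4 alone and Hsd3b3 against neither end. Hsd3b2 read low, with an average of 4.70 over all 24 arrays, while array medians were 6.06 to 6.16. Ugt2b5 was not on the xenobiotic list, in which 2 genes were called lower and 0 of these had both middle means on 1 side. Of that list's conjugating enzymes, Ugt2b36 did not pass, at -0.48 (adjusted p = 0.0606). Ugt2b34 at 0.0017 and the sulphotransferase Sult1b1 at 0.245, both named after their values were seen, did not pass either. The Ugt2b and Hsd3b families hold near-identical copies, so the signal of single members is uncertain. Without the 6 marker-rich arrays Ugt2b5 stayed called at -2.38 (adjusted p = 0.00225), and Hsd3b2 (adjusted p = 0.0752) and Hsd3b3 (adjusted p = 0.415) did not.

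A heat shock gene, Hsph1, was among the 27 called lower in the middle. Heat shock genes were not counted as a list, so no share of them can be given. Hsph1, a large heat shock protein that helps refold other proteins, read 7.20, 8.37 and 8.74 in segment 2 and 8.40, 9.01 and 9.43 in segment 3, against 8.77, 9.25 and 9.34 in segment 1 and 9.15, 10.22 and 10.07 in segment 4. The arrays overlapped, but all 3 replicates differed the same way, by -1.16, -1.05 and -0.62. The mean difference was -0.94 ± 0.11 (SE; adjusted p = 0.0186), which passed against segment 4 (-1.29, adjusted p = 0.00199) and not against segment 1 (-0.6, adjusted p = 0.099). Other chaperone genes, looked at after Hsph1 was seen, did not pass: Hspa1a stood at -1.30 (adjusted p = 0.192; -0.77 without Amacr-/- replicate 2), Hspa1b at -1.28 (adjusted p = 0.0927), Dnaja1 at -0.47 (adjusted p = 0.0647) and Chordc1 at -0.35 (adjusted p = 0.0704). Hspa1a and Hspa1b are near-identical copies. Hsph1 stood at -0.87 with an adjusted p of 0.32 when the marker-rich arrays were left out.

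Among the other genes called lower, Tfpi2, an inhibitor of serine proteases, differed by -1.10 ± 0.15 (adjusted p = 0.0313) and read 5.30 to 6.15 in the middle, against 5.68 to 6.27 in segment 1 and 7.21 to 7.96 in segment 4. Tmem65, a protein of the inner mitochondrial membrane, read 7.79 to 8.31 in the middle and 8.46 to 9.03 at the ends, and Noct, a clock-driven phosphatase of NADP, read 10.35 to 10.94 in the middle and 11.03 to 11.58 at the ends. Both had no overlap and passed against each end, with differences of -0.79 and -0.76. Nipal2 did so too, at -0.69 ± 0.09 (adjusted p = 0.027). Spag5, a spindle protein of dividing cells, differed by -0.74 and Zfp799, a zinc finger gene, by -0.75, and both passed against segment 1 alone.

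The 61 genes differed in which end lay nearer. Of the 34 higher in the middle, segment 1 was the higher end in 21 and segment 4 in 13; 17 passed against each end, 13 against segment 4 alone and 4 against segment 1 alone. Of the 27 lower in the middle, segment 1 was the lower end in 10 and segment 4 in 17; 7 passed against each end, 8 against segment 4 alone, 11 against segment 1 alone and 1 against neither. The peak within the middle was in segment 2 for 22 of the 34, in segment 3 for 11 and equal in Pla2g12b, and the trough of the 27 was in segment 2 for 11 and in segment 3 for 16. Over all genes, 23 were higher (0.151%) and 14 lower (0.0917%) against each end; 27 of these 37 were also called on the mean of both ends. In 17 of the 34 and 7 of the 27 the 6 middle arrays did not overlap with the 6 end arrays, which held for 0.4% of all genes above and 0.21% below. A further 91 genes were called on the mean of both ends but did not have both middle means on 1 side: in 30 both middle means lay between the end means, and in 61 one of them lay outside.

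Lists of genes by function, chosen with earlier results of these data known, are given by counts and medians beside the median of -0.0017 over all genes. The counts stand beside these shares of all genes: 0.563% called higher and 0.432% called lower. Both middle means lay above both end means in 11.3% and below in 10.1%, and 49.4% had a difference above 0. Of 21 genes of fat uptake and chylomicron assembly, 4 were called higher in the middle and 0 lower, with a median of 0.14. In 1 of the 4, Pla2g12b, a lipoprotein-loading protein in mouse liver, both middle means lay above both end means. It read 11.28 to 11.47 in the middle and 10.65 to 11.14 at the ends, a difference of 0.44 ± 0.06 (adjusted p = 0.0313). Of 15 sugar digestion and uptake genes 2 were called higher, with a median of 0.30, and of 10 brush border peptidases 2 were, with a median of 0.27. In these 4 called genes the middle means did not lie on 1 side of both ends. Mlxipl, a sugar-sensing transcription factor, at 0.30 (adjusted p = 0.134), and Dpp4, a peptidase of the brush border, at 0.42 (adjusted p = 0.071), lay above both ends without passing.

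The lists with the lowest medians were bile acid uptake and FXR signalling at -0.58, cholesterol synthesis at -0.34, cell cycle and DNA replication at -0.25 and iron, calcium and folate uptake at -0.22. Of 11 bile acid genes, 4 were called lower and 1 higher, and in none of the 5 did both middle means lie on 1 side. Only 1 of the 11 had both middle means below both end means. Slc10a2 and Fabp6, named after their values were seen, were highest in segment 4. They averaged 4.52 and 4.22 in segment 1, and 11.72 and 14.67 in segment 4. Nr0b2, also named so, was highest in segment 1, at 8.59. Of 15 cholesterol synthesis genes, 1 was called lower. It was Msmo1, which removes methyl groups from early sterols, and it read 10.32 to 11.13 in the middle, against 10.58 to 11.04 in segment 1 and 11.69 to 11.74 in segment 4. Its difference was -0.63 ± 0.10 (adjusted p = 0.047), and it passed against segment 4 alone. All 25 measured cell cycle genes had negative differences, with medians of -0.22, 0.005 and -0.58 in replicates 1 to 3, and 0 passed. Rrm2, which makes the building blocks of DNA, stood at -0.83 (adjusted p = 0.223).

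Among 14 fatty acid synthesis genes 2 were called lower and 0 higher, with a median of 0.01. Scd1, which desaturates fatty acids, and Thrsp, a lipogenic regulator, had differences of 1.17 (adjusted p = 0.438) and 1.06 (adjusted p = 0.29), and both read highest in segment 3 replicate 3, at 10.61 and 8.78. That array also had the highest fat cell markers, with Fabp4 at 12.59 and Car3 at 12.75. Without the 6 marker-rich arrays Scd1 stood at 0.03 and Thrsp at 0.12. In amino acid and peptide uptake 0 of 17 passed: Slc6a20b, a transporter of proline, stood at -0.98 (adjusted p = 0.0519) with no overlap of arrays, and Slc43a2, which carries large neutral amino acids, stood at 0.51 (adjusted p = 0.0655). In the unfolded protein and stress response, 0 of 23 passed and 7 had both middle means below both end means; the chaperone Hspa5 stood at -0.42 (adjusted p = 0.0563).

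In the other 15 lists the median lay between -0.09 and 0.10, and no called member had both middle means on 1 side of both ends. Among 22 peroxisomal genes, the pathway in which the deleted enzyme works, 1 was called lower and 0 higher, with a median of 0.02; Abcd2, a peroxisomal fatty acid carrier, stood at 0.15 (adjusted p = 0.634). Among 18 genes of PPARa-regulated oxidation, 1 was called in each direction; Cpt1a, which admits fatty acids to mitochondria, stood at -0.50 (adjusted p = 0.107). Of 27 cytochrome P450 and xenobiotic genes, 2 were called lower, with a median of 0.08. Of 18 enteroendocrine hormone genes, 2 were called higher, with a median of 0.003. None of 35 respiratory chain, 23 MHC class II and interferon gamma, 14 type I interferon or 16 circadian clock genes passed; Cox5a, a cytochrome oxidase subunit, stood at -0.07 (adjusted p = 0.784), and Gbp2, an interferon-induced GTPase, at -0.54 (adjusted p = 0.647).

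**Figure D4:**
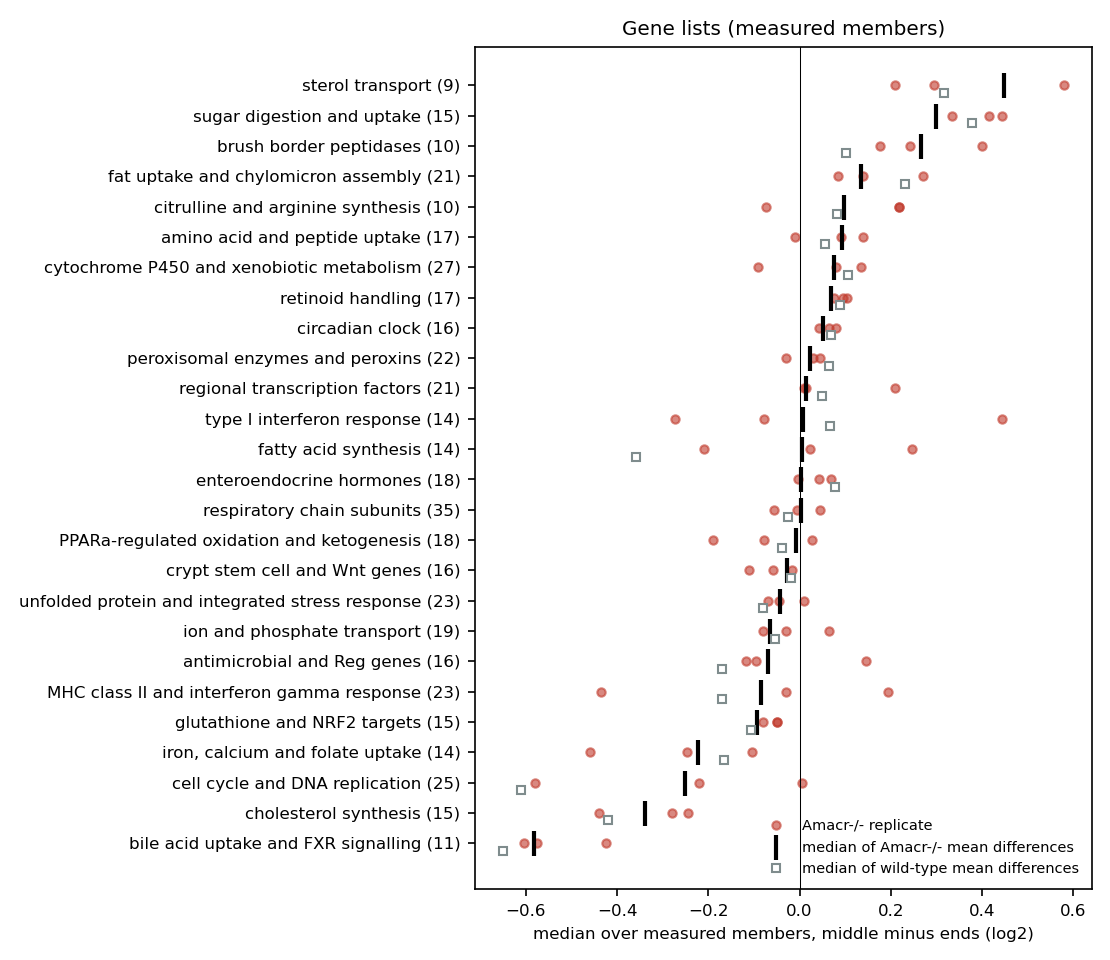
Median middle-minus-end difference (log2, horizontal axis) over the measured members of each gene list, with the number measured in parentheses. Points are the 3 Amacr-/- replicates, bars the median of the Amacr-/- mean differences and squares that of the wild-type. Bile acid genes lie lowest at -0.58 and the sterol transport list highest at 0.45.

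The wild-type intestine showed the same direction in all 61 genes. In wild-type, 100 genes were called between the middle and the ends (0.655%), 52 higher and 48 lower; 25 of the 61 were among them, and in 48 of the 61 both wild-type middle means lay on the same side. The wild-type difference was smaller in size in 32 of the 34 genes higher in the middle and in 20 of the 27 lower. The 61 were chosen on the Amacr-/- differences, set against a spread estimated from both genotypes. That choice favours genes with large Amacr-/- differences in these arrays, so smaller wild-type differences follow in part from it. Neither those counts nor the shared direction was set beside a share over all genes. The wild-type calls used the same spread, so the 25 are not an independent count. Over 15267 genes the Amacr-/- and wild-type differences correlated with r = 0.692 and rho = 0.532, a description across genes that share arrays.

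The difference between genotypes was tested directly. With limma, 0 genes passed (0%), 503 had an unadjusted p under 0.05 (3.29%), and the smallest adjusted p was 0.982. A fit of group means without the replicate numbers also called 0. Clca3a1 had the smallest p among genes on 1 side of both ends. In wild-type it read 5.81, 6.17 and 6.82 in segment 2 and 6.39, 6.90 and 7.55 in segment 3, against 5.82, 5.31 and 5.61 in segment 1 and 6.49, 6.5 and 6.24 in segment 4. In segment 2 all 3 Amacr-/- arrays lay above all 3 wild-type arrays. The middle-to-end difference was 2.24 in Amacr-/- and 0.61 in wild-type mice, and the gap of 1.62 ± 0.30 (SE) had an unadjusted p of 0.000926.

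For Slc13a1, whose Amacr-/- values are given above, the wild-type arrays read 9.70, 9.86 and 9.43 in segment 2 and 9.70, 9.28 and 9.45 in segment 3, against 13.33, 12.51 and 12.57 in segment 1 and 13.30, 12.57 and 12.72 in segment 4. Every Amacr-/- middle array lay above every wild-type middle array, while the end arrays of the genotypes overlapped. The difference was -1.92 in Amacr-/- and -3.26 in wild-type mice, a gap of 1.34 ± 0.31 (SE; unadjusted p = 0.00323), which did not pass over all genes. Npl, at 3.07 in Amacr-/- and 2.36 in wild-type mice, had a gap of 0.71 ± 0.28 (unadjusted p = 0.0386), and its wild-type segment 4 read 6.77, 7.51 and 9.83.

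**Figure D5:**
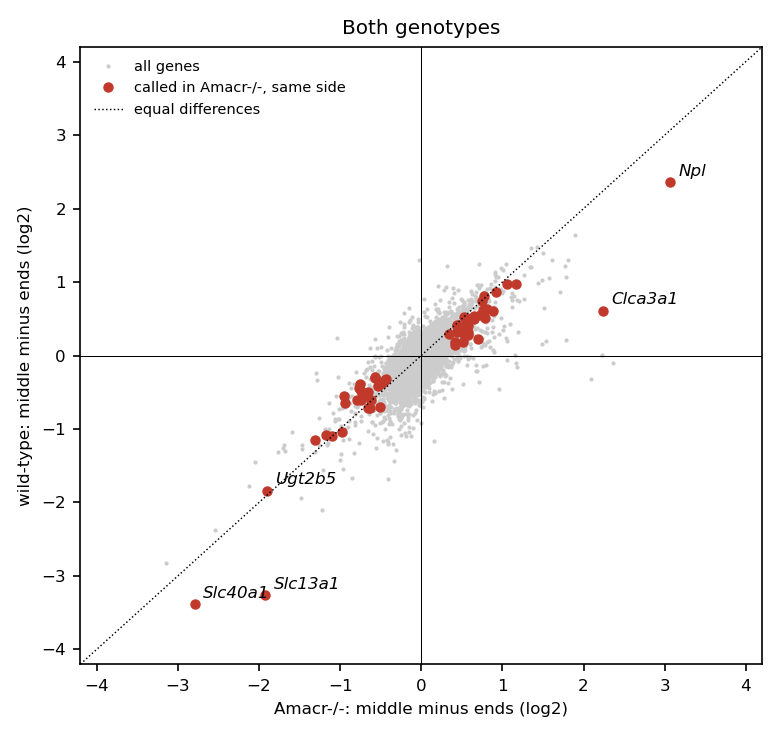
Middle-minus-end difference (log2) in Amacr-/- mice (horizontal axis) and in wild-type mice (vertical axis) for 15267 genes, with the 61 called same-side genes in red. All 61 lie in the quadrants of equal sign; Clca3a1 (2.24 and 0.61) and Slc13a1 (-1.92 and -3.26) lie far from the dotted line of equal differences.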

How the data were processed

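The values are log2 expression values as deposited, made by the authors with RMA per the submitters' processing notes; no version or probe build is given in the sources used here, and the base of the logarithm is taken as 2, which RMA returns. RMA sets all arrays to 1 distribution, so that differences in total RNA are removed and low values are compressed. Of 16556 probe sets, 64 controls and 1222 without a name were left out; 15270 name 1 gene, 0 several. Of 2 probe sets of a gene, which 3 genes had, the brighter one on average was used; 15267 genes were tested, with no filter on dim ones. Symbols came from gene numbers through a RefSeq table of GRCm38.p6. Arrays of a group correlated at 0.979 to 0.995, and 0 pairs were identical. The number of arrays limits the precision, and p-values measure the spread between these samples.

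From the values, 6 differences (mean of segments 2 and 3 minus mean of segments 1 and 4), 1 per genotype and replicate number, were fitted with limma 3.58.1 in R 4.3.3 (lmFit, eBayes; a mean per genotype, 4 residual degrees of freedom, prior 3.27), with Benjamini-Hochberg adjustment and calls at 0.05. Further fits took the middle minus segment 1 and minus segment 4, and the genotype contrast. The steps were run on simulated data with known changes and independent noise around a flat mean per gene. That run had no replicate links or marker-rich arrays, so it checks the code and not these results. Named are the 15 largest called differences in each direction with both middle means on 1 side of both end means, up to 4 called or 2 uncalled such members per list, the 3 smallest genotype p-values, Amacr, and genes said to be named after their values were seen; clone names were passed over. The members, lists and tests were chosen with earlier results of these data known. Alternatives were median centring, renewed quantile normalization, floors of 5 and 6.5 on the mean, all probe sets, trended and robust eBayes, fits without or with the replicate number as a block, fits with marker means or without marker-rich arrays, and leaving out each replicate.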

Additional observations from a re-analysis of the deposited data

Results flagged for a closer look

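In Catsper1 and Sox8, 2 genes named for their small genotype p, the 3 Amacr-/- replicates all moved one way between the ends and the middle and the 3 wild-type replicates all moved the other way. Catsper1, a calcium channel subunit of sperm, had differences of -0.26, -0.14 and -0.25 in Amacr-/- mice and of 0.34, 0.11 and 0.25 in wild-type mice. Its gap, Amacr-/- minus wild-type, was -0.45 (unadjusted p = 0.00183), which did not pass limma's test of the genotype difference over all genes (adjusted p = 0.982). Sox8, a transcription factor, had differences of -0.36, -0.24 and -0.32 in Amacr-/- mice and of 0.20, 0.12 and 0.02 in wild-type mice. Its gap was -0.42 (unadjusted p = 0.00189) and did not pass either (adjusted p = 0.982). Both genes read low: over all 24 arrays Catsper1 averaged 5.67 and Sox8 4.45, while array medians were 6.06 to 6.16. The deleted gene Amacr read 4.81 to 5.6 in the Amacr-/- arrays. Catsper1 and Sox8 were chosen on this contrast, so their values are a description.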

How the results depend on the processing

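The direction of all 43 called and named genes held in every alternative that measured them, and Npl was called in all 19. Where 1 replicate was left out the direction could not change, as stated above. Counts of calls moved more. The counts are 86 higher, 66 lower, 34 higher and 27 lower with both middle means on 1 side, and 37 against each end. They stayed within 1.5 times under median centring, renewed quantile normalization, a floor of 5, all probe sets, trended robust eBayes and the Amacr-/- differences alone. The genes themselves changed more in the last of these. With the Amacr-/- differences alone 56 genes were called on 1 side, of which 35 were among the 61. Of the 43 named genes, 27 stayed called in that fit. A floor of 6.5, with 6801 genes tested, gave 62 against each end. With no replicate block the group means over 24 arrays gave 253, 175, 129, 78 and 75, and over the 12 Amacr-/- arrays 211, 113, 100, 45 and 52. The replicate number as a random block gave 330, 228, 169, 104 and 89, and as a fixed block in Amacr-/- 219, 117, 100, 51 and 58. Same-numbered Amacr-/- arrays deviated together with mean r of 0.05, 0.07 and -0.001, and wild-type arrays with 0.44, -0.02 and 0.17, so not every same-numbered set deviated together and the numbers were not taken as settled pairs. In wild-type replicate 1 every pair of arrays did, at r of 0.387 or more. Marker means as covariates gave 144 higher, 70 and 41 on 1 side; without the marker-rich arrays the counts were 67, 66, 41, 30 and 29. Leaving out 1 replicate gave 9 to 157 higher, 4 to 121 lower, 2 to 62 and 0 to 49 on 1 side, 8 to 48 against each end and 0 to 1 for the genotype difference; the 1 gene was Rab30 (-2.09, adjusted p = 0.0432), named after its value was seen, without wild-type replicate 3. The cause of these shifts was not tested beyond the fewer samples or genes of each fit. Reversed were genes that had not passed: without the marker-rich arrays Abcd2 (-0.0583), Cox5a (0.05) and Amacr (-0.10); with covariates Abcd2 (-0.0629), Scd1 (-0.23) and Fabp4 (-0.20); and on leaving out 1 replicate Gbp2, at -0.95 to 0.16, and Abcd2, at -0.015 to 0.25.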
